A study of Mus musculus with 14 samples.

Results

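The 10 genes known to mark dendritic cells in mouse spleen were read on 14 Agilent arrays with 1 dye, each holding the RNA of a single mouse. They were chosen by symbol, for what they are known to mark, by a rule that uses no measured value. Earlier results of these data were known when they were chosen. They are Zbtb46, Flt3 and Itgax for conventional dendritic cells as a whole, Xcr1, Clec9a and Batf3 for the cDC1 branch, Cd209a for cDC2 and monocyte-derived cells, and Siglech, Bst2 and Tcf4 for plasmacytoid dendritic cells. All 10 were tested among 24908 genes, and they are covered by 19 of the 56605 probes, of which 17 were tested. Among the arrays, 7 came from WT C57BL/6 mice and 7 from Sting gt/gt mice, which carry the golden ticket allele of Tmem173 made by ENU mutagenesis. All 14 mice were 10 to 14 weeks old and had been given complete Freund's adjuvant with chicken type II collagen (CFA + CII) in the skin, and splenocytes were taken 2 weeks later after red cells had been lysed. No unimmunized mice are among these arrays, and the WT and Sting gt/gt mice came from different sources.

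Conventional dendritic cells take up antigen and present it to T cells. They depend on the growth factor receptor Flt3 and carry the transcription factor Zbtb46. The cDC1 branch needs Batf3 and presents antigen from dead cells, which it recognises through Clec9a, while cDC2 cells prime helper T cells. Plasmacytoid dendritic cells (pDC) are kept in their identity by the E protein Tcf4 and are known for making type I interferon when nucleic acids reach their Toll-like receptors. STING is the endoplasmic reticulum adaptor through which cytosolic DNA induces type I interferon, so the comparison asks whether dendritic cell RNA in the immunized spleen differs where this adaptor is lost.

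Values are log2 processed signals with each array's 75th percentile set to 0, so a value of 1 stands for a signal of 2 times that percentile. The brightness of a spot depends on its probe, so levels are compared between mice and not between genes. The number of arrays limits the precision. Between 30781 and 34400 probes were well above background on an array, and arrays correlated at 0.962 to 0.993 across genes. The 10 B cell and 10 T cell markers looked up for the splenocyte label were all tested, and 9 of 10 erythroid markers were still tested after red cell lysis. Replicates 1 to 3 of both genotypes were scanned on 1 day and replicates 4 to 7 on another. They are called the first and the second set here. RNA of the targeted gene, listed as Sting1, spanned 2.85 to 3.33 in WT and 2.92 to 3.29 in Sting gt/gt mice, so its level does not check the genotype labels. In the second set no slide held both genotypes (WT mice filled 2 slides, Sting gt/gt mice another slide), which means that slide and genotype cannot be told apart there. Since these are whole splenocytes, fewer dendritic cells and less RNA per dendritic cell cannot be told apart. Nothing in the labels says that mice of a set shared a litter or cage.

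No dendritic cell gene passed the unadjusted threshold of 0.05 between Sting gt/gt and WT mice by limma over all 14 arrays. The count was 0 of 10, where 3.54% of all tested genes passed. Of the 10 log2 differences, 5 were above 0 and 5 below, from -0.09 for Siglech to 0.16 for Xcr1. Their median was 0.02 and that of all genes was 0.02. Every adjusted p of the 10 was 0.999 by limma. The 2 genotypes overlapped for each of the 10 genes, and among all genes 0.0482% had groups of 7 that did not overlap.

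Among the genes shared by conventional dendritic cells, Zbtb46 lay between -1.58 and -0.83 (median -1.23) in WT mice, while Sting gt/gt mice lay between -1.61 and -0.28 (median -1.12). Its log2 difference was 0.09 with a standard error of 0.18 and a 95% interval from -0.29 to 0.47. The highest value, -0.28, belonged to Sting gt/gt replicate 1, and the other 6 Sting gt/gt mice lay at -1.01 or below. Flt3, the receptor for the cytokine Flt3 ligand, lay between 0.68 and 1.83 (median 1.60) in WT mice, while Sting gt/gt mice lay between 0.71 and 2.10 (median 1.68). Its log2 difference was 0.04 with a standard error of 0.25. Within both genotypes the low Flt3 values belonged to the first set of replicates. Itgax, which encodes the integrin chain CD11c and is also used by NK cells and macrophages, lay between 2.48 and 3.11 (median 2.57) in WT mice, while Sting gt/gt mice lay between 2.10 and 3.41 (median 2.62). Its log2 difference was -0.0019, with a 95% interval from -0.36 to 0.36.

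None of the 3 cDC1 genes passed. Xcr1, the receptor for the chemokine Xcl1, lay between -3.03 and -1.88 (median -2.53) in WT mice, while Sting gt/gt mice lay between -2.56 and -1.87 (median -2.29). Its log2 difference of 0.16 had a 95% interval from -0.18 to 0.50, and both extremes of the WT range came from the second set. Clec9a lay between 0.86 and 1.52 (median 1.31) in WT mice, while Sting gt/gt mice lay between 0.62 and 1.94 (median 1.28), with a log2 difference of -0.014 and a standard error of 0.17. Batf3, the transcription factor on which cDC1 development depends, lay between 0.91 and 1.49 (median 1.29) in WT mice, while Sting gt/gt mice lay between 0.78 and 1.48 (median 1.16). Its standard error of 0.13 was the smallest of the 10, and its log2 difference was -0.03. Cd209a, a C-type lectin of the DC-SIGN family, varied most between mice after Siglech. It lay between -2.42 and -0.059 (median -0.9998) in WT mice, while Sting gt/gt mice lay between -2.34 and -0.33 (median -0.88). The log2 difference was 0.12 with a 95% interval from -0.69 to 0.92, the widest of the 10 after Siglech.

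**Figure D1:**
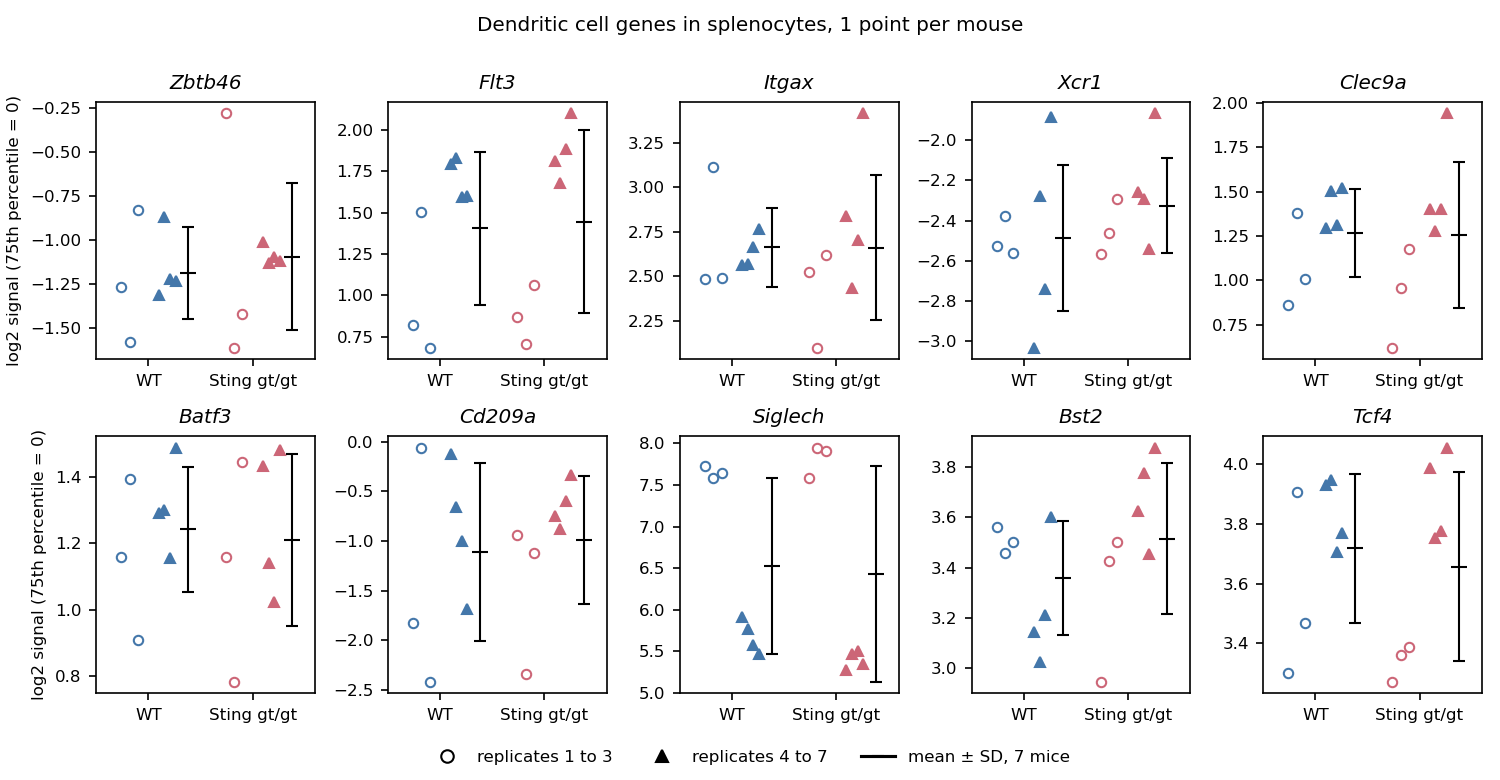
Log2 signal of each dendritic cell gene (vertical axis, array's 75th percentile set to 0) in 7 WT and 7 Sting gt/gt mice, with open circles for replicates 1 to 3, triangles for replicates 4 to 7 and black bars for the mean ± SD of 7 mice. The genotypes overlap in each panel, while Siglech falls into 2 groups by set of replicates, at 7.58 to 7.95 and at 5.28 to 5.91. Each panel has its own vertical range.

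The 3 genes of plasmacytoid dendritic cells did not pass the threshold over 14 arrays either. Siglech, a sialic acid binding receptor at the pDC surface, lay between 5.47 and 7.72 (median 5.91) in WT mice, while Sting gt/gt mice lay between 5.28 and 7.95 (median 5.50), and its log2 difference was -0.09 with a standard error of 0.57. Bst2, also called tetherin, is the antigen of the pDC antibody PDCA-1, is induced by interferon and is also carried by plasma cells. It lay between 3.03 and 3.60 (median 3.46) in WT mice, while Sting gt/gt mice lay between 2.95 and 3.88 (median 3.50). Its log2 difference of 0.16 had a standard error of 0.14 and a 95% interval from -0.15 to 0.46. Tcf4, which B cells also use, lay between 3.30 and 3.95 (median 3.77) in WT mice, while Sting gt/gt mice lay between 3.27 and 4.05 (median 3.75), with a log2 difference of -0.06 and a standard error of 0.15. Two-sided exact permutation tests over all 3432 ways to part the 14 mice gave p values between 0.289, for Bst2, and 0.990, for Itgax. With the set of replicates as a term in the model, which took most of the spread out of Siglech and Flt3, the count remained 0 of 10 where 7.24% of all genes passed. With the replicate number as a block it was also 0 of 10, where 5.65% (1408 genes) passed. With the set as a term, the 95% interval of Siglech narrowed to -0.32 to 0.14 and that of Flt3 to -0.23 to 0.32.

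The promoters of Bst2 and Siglech are shown because their genotype difference varied between the sets of replicates past an unadjusted 0.05, as described below. These were 2 of 10 members, near the 18.4% of all genes that passed. RefSeq promoters of 300 bases on the GRCm38.p6 build, 250 before the start site and 50 after it, were matched for 9 of the 10 genes. In the promoter of Bst2, on the minus strand at chr8:71537423-71537722, capitals mark 2 overlapping matches to the interferon response element core (GAAA, any 2 bases, then GAAA), which begin 130 and 124 bases before the start site. In that of Siglech, on the plus strand at chr7:55767934-55768233, capitals mark the 3 matches to the E-box CANNTG, the motif of E proteins such as Tcf4, which begin 235, 56 and 20 bases before the start site.
Bst2 promoter: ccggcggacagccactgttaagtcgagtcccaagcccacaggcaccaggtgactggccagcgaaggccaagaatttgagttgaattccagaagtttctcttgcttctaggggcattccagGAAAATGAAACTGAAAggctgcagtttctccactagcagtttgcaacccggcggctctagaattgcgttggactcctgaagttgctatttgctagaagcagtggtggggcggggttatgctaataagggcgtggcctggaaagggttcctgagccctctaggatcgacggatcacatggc
Siglech promoter: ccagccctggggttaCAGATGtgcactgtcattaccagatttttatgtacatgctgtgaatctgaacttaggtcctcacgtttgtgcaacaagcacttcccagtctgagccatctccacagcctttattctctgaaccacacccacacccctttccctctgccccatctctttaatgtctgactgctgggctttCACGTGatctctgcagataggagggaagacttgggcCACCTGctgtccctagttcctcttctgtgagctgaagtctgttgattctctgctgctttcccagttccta
Bst2 was the 1 gene of the 9 with the interferon response core, which 3.44% of the 32851 promoters in the table hold on either strand. All 9 held an E-box, as did 72.3% of all promoters. The AP-1 motif TGANTCA was found in Zbtb46 and Itgax (7.81% of all promoters) and the PU.1 core GAGGAA in Batf3 and Siglech (28.3%). These are matches of letters, searched on both strands, and nothing about binding was measured.

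Of the 10 genes, 6 have more than 1 probe. None of the 17 tested probes passed the threshold, where 3.46% of all probes did, and none was saturated on any array. The lowest p was that of the Bst2 probe, 0.290 by limma. The 2 probes of Clec9a gave log2 differences of -0.014 and -0.07, and those of Cd209a 0.12 and 0.09. The 3 tested probes of Tcf4 gave -0.06, -0.11 and 0.04. A further 2 Tcf4 probes, well above background on 4 arrays and on 0 arrays, were not tested. The second probes of Itgax and Siglech, well above background on 8 and 10 arrays, gave -0.29 and 0.26, against -0.0019 and -0.09 for the brighter probe of each.

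Within the first set, with 3 mice of each genotype, 0 of 10 members passed where 3.77% of all genes did. The log2 differences there ran from -0.28 for Itgax to 0.16 for Siglech. Within the second set, with 4 mice of each genotype, 2 of 10 passed, Bst2 higher and Siglech lower in Sting gt/gt mice. In that set 23.7% of all genes passed, 12.5% higher and 11.3% lower, so the share of members lay near that of all genes. An exact permutation test cannot go below 0.1 in the first set or below 0.0286 in the second.

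Bst2 stood at 3.56, 3.46 and 3.50 in WT and at 2.95, 3.43 and 3.50 in Sting gt/gt replicates 1 to 3. In replicates 4 to 7 it stood at 3.14, 3.03, 3.21 and 3.60 in WT mice and at 3.63, 3.77, 3.46 and 3.88 in Sting gt/gt mice. The second set thus held 3 low WT values, while WT replicate 7 lay above the lowest Sting gt/gt mouse. The log2 difference was -0.22 (standard error 0.18) in the first set and 0.44 (standard error 0.15, adjusted p = 0.130 by limma, exact permutation p = 0.0571) in the second.

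Siglech stood at 7.72, 7.58 and 7.65 in WT and at 7.58, 7.95 and 7.91 in Sting gt/gt replicates 1 to 3. In replicates 4 to 7 it stood at 5.91, 5.77, 5.57 and 5.47 in WT mice and at 5.28, 5.47, 5.50 and 5.35 in Sting gt/gt mice, so the genotypes overlapped. The log2 difference was 0.16 (standard error 0.15) in the first set and -0.28 (standard error 0.12, adjusted p = 0.200 by limma, exact permutation p = 0.0571) in the second. The second, dimmer probe of Siglech gave a log2 difference of 0.06 in the second set and did not pass.

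The difference of the 2 effects was tested by an interaction term. It was 0.65 for Bst2 (standard error 0.23, adjusted p = 0.164 by limma, exact permutation within sets p = 0.0157) and -0.45 for Siglech (standard error 0.18, adjusted p = 0.219 by limma, exact permutation within sets p = 0.0229). These were 2 of 10 members past an unadjusted 0.05, where 18.4% of all genes passed. Markers of other cells also had genotype differences in the second set, counted here past an unadjusted 0.05 by limma, which 12.5% of all genes passed upward and 11.3% downward in Sting gt/gt mice. Of the 7 plasma cell markers, 5 were higher past it, and the median log2 difference of the list was 0.60. In the first set that median was -0.14, and 2 markers, Jchain and Derl3, were lower past it. In the second set their summed signal, relative to the 75th percentile, ran from 161 to 226 in Sting gt/gt and from 117 to 151 in WT mice. Of the 10 B cell markers, 6 were lower past it in the second set, with a median of -0.47, and 1, Fcer2a, was higher past it in the first, with a median of 0.25. In the second set their summed signal ran from 155 to 180 in Sting gt/gt and from 188 to 262 in WT mice. Of the 9 tested erythroid markers, 7 were lower past it in the second set, with a median of -0.54, and 0 passed in the first, with a median of -0.18. In the second set their sums were 870 to 1046 in Sting gt/gt and 918 to 1091 in WT mice. In that set 1 of 8 NK cell and 2 of 13 monocyte and macrophage markers were higher past it. Of 9 neutrophil markers, 1 was higher and 1 lower, and 0 of 10 T cell markers passed. Among all genes, 15.1% had second-set groups that did not overlap, and slide and genotype cannot be told apart there. The part of these cell markers in the values of Bst2, Siglech and Tcf4 was not tested.

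**Figure D2:**
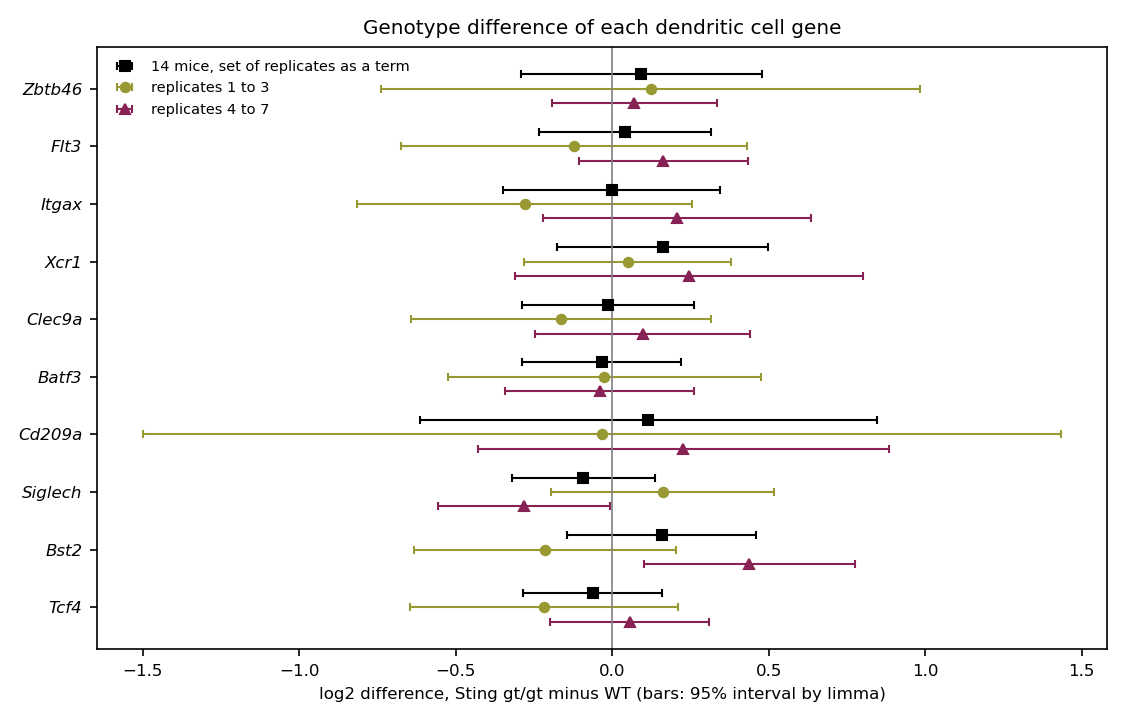
Log2 difference between Sting gt/gt and WT mice (horizontal axis, above 0 where Sting gt/gt is higher) for each dendritic cell gene, with 95% intervals by limma, over 14 mice with the set of replicates as a term (black squares), in replicates 1 to 3 (circles) and in replicates 4 to 7 (triangles). The intervals over 14 mice hold 0 for all 10 genes, and in replicates 4 to 7 those of Bst2 (0.10 to 0.77) and Siglech (-0.56 to -0.0083) do not.

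The larger contrast in these genes was the one between the sets of replicates. With genotype in the model, 4 of the 10 differed between the sets at an adjusted p under 0.05 by limma, where 38.8% of all genes did (18.3% higher and 20.6% lower in the second set). Flt3 rose by 0.85 (standard error 0.13, adjusted p = 0.000159 by limma). It ran from 0.68 to 1.50 in the first set and from 1.60 to 2.10 in the second, without overlap. Clec9a rose by 0.46 (adjusted p = 0.0124 by limma) and Tcf4 by 0.41 (adjusted p = 0.00627 by limma), in both cases with overlap. Siglech fell by 2.19 (standard error 0.11, adjusted p = 9.29e-09 by limma), a signal 4.58 times lower, and it ranked 102 of 24908 genes from the largest fall. Siglech and Flt3 were the 2 members whose sets did not overlap, as was so for 15.8% of all genes. Cd209a stood 0.69 higher in the second set, with an interval from -0.042 to 1.43, and did not pass.

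The probes of a gene did not always share these differences. Both Clec9a probes rose, by 0.46 and 0.62. Of the 2 Cd209a probes the dimmer one passed, with 1.04 (adjusted p = 0.00915 by limma). The brightest Tcf4 probe rose by 0.41, the next differed by -0.03 and the dimmest of the tested probes fell by 0.53 (adjusted p = 0.00400 by limma), so the sets cannot be given an order for Tcf4 as a gene.

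The 2 Siglech probes differed most. The brighter one gave processed signals of 83503 to 116858 in the first set and of 18311 to 25987 in the second, and 97.6% to 99.7% of all probes were dimmer on the same array. The other gave signals of 15.7 to 47.4 and of 16.1 to 51.1, and its set difference was 0.26 (standard error 0.30, adjusted p = 0.521 by limma). After the mean of each genotype in each set was removed, the 3 genes with a symbol most like the brighter Siglech probe over the 14 arrays, of 14721 compared, were Rps27 (Pearson 0.96, Spearman 0.96), Rpl11 (0.91 and 0.86) and Slc10a1 (0.89 and 0.89). Rps27 and Rpl11 encode ribosomal proteins, and Slc10a1 encodes the bile acid transporter of the liver. Rps27 averaged 8.54 ± 0.13 (SD, 6 mice) in the first set and 8.08 ± 0.11 (SD, 8 mice) in the second, a fall of 0.46, and Slc10a1 fell by 0.60, from 9.14 to 8.54. Rpl11, at 8.30 and 8.10, differed by -0.20 and did not pass (adjusted p = 0.0828 by limma). Which RNA the brighter probe reads was not tested, and the values given for Siglech are those of that probe.

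**Figure D3:**
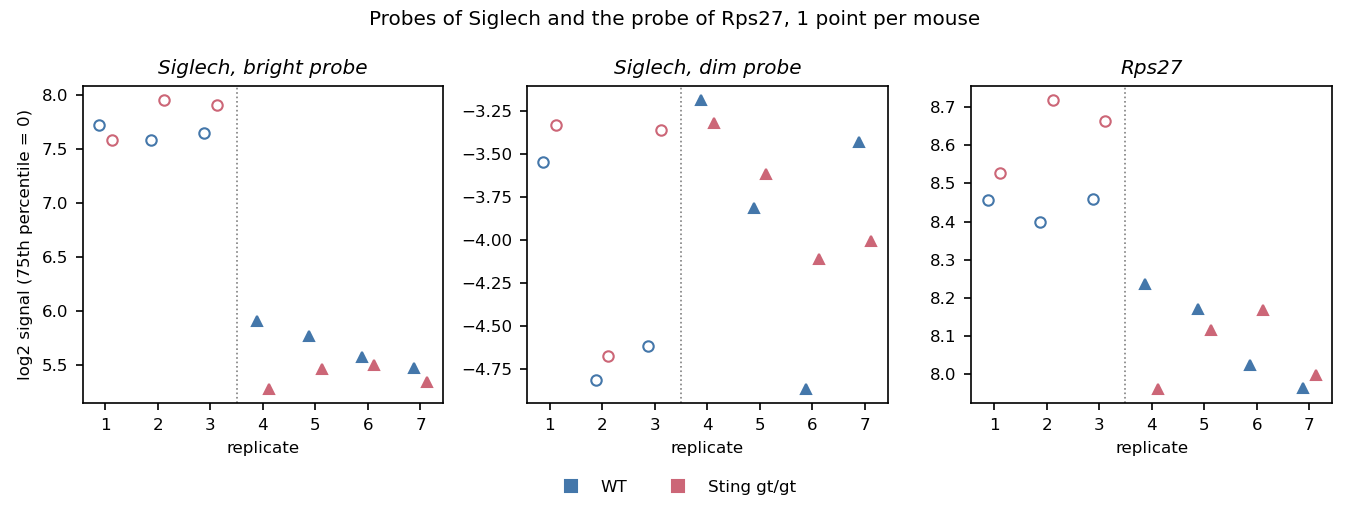
Log2 signal (vertical axes, array's 75th percentile set to 0, each panel with its own range) of the brighter and the dimmer Siglech probe and of Rps27 by replicate number, for WT (blue) and Sting gt/gt (red) mice. The dotted line parts replicates 1 to 3 from 4 to 7, between which the brighter probe fell by 2.19 and the dimmer one, with a difference of 0.26, did not pass.

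The set difference was not found in the log2 table that the authors deposited beside the scanner files. There, 0 of 10 members and 0% of all genes (0 of 24908) differed between the sets at an adjusted p under 0.05 by limma. At an unadjusted p under 0.05 by limma, 348 genes (1.4%) passed, against 47.3% in the scanner signal. How the deposited table was scaled is not given, and whether it was adjusted for the sets was not tested. Siglech averaged 15.3 in the first set and 15.1 in the second there, a difference of -0.18, and Flt3 differed by 0.15. Among the 17 tested probes the differences in the table lay between -0.23 and 0.38. Genotype differences were little moved by this. In the values of the deposited table, 0 of 10 members passed over 14 arrays, where 7.74% of all genes did, and Xcr1 stood at 0.15, Bst2 at 0.12 and Siglech at -0.13. The standard error of Siglech was 0.11 there, against 0.57 in the scanner signal. Within the second set, Siglech again passed with -0.31 (unadjusted p = 0.0110, adjusted p = 0.108 by limma), and Bst2, at 0.32, did not (unadjusted p = 0.0686, adjusted p = 0.246 by limma), where 23.7% of all genes passed.

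**Figure D4:**
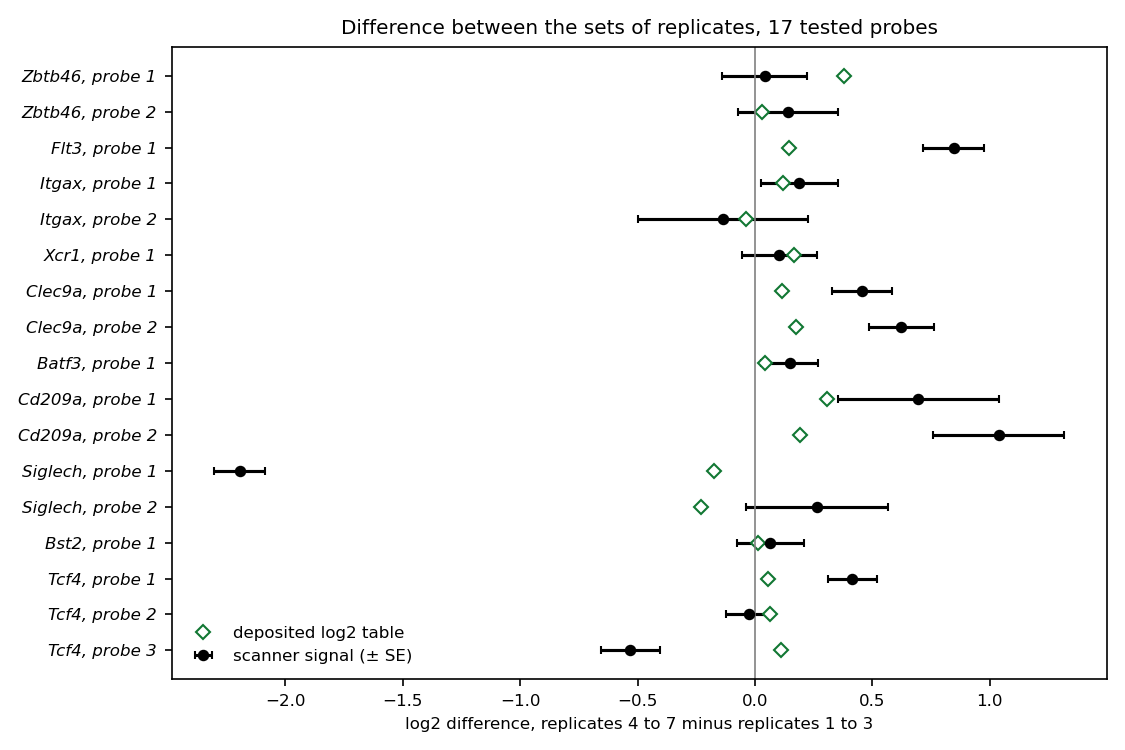
Log2 difference between replicates 4 to 7 and replicates 1 to 3 (horizontal axis) for the 17 tested probes of the 10 genes, in the scanner signal with standard errors (black) and in the deposited log2 table (green diamonds). In the scanner signal the probes lie between -2.19 and 1.04, and in the deposited table between -0.23 and 0.38.

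Other genes of the dendritic cell branches, listed by what they are known for, were read in the same comparison. Of 75 listed genes in 5 lists, 71 were tested, and 2 of them passed, both higher in Sting gt/gt mice, which is 2.82% beside 3.54% of all genes. Of 14 cDC1 genes, such as the transcription factors Irf8 (log2 difference -0.03) and Id2 (0.12), none passed, and the median was -0.03. Of 13 tested cDC2 genes, 1 passed. This was Rbpj, the nuclear partner of Notch, which was higher in Sting gt/gt mice by 0.31 (standard error 0.14, adjusted p = 0.999 by limma). Its difference was -0.04 in the first set and 0.57 in the second. Irf4, the factor of the cDC2 branch, differed by -0.07. Of 19 tested pDC genes, 1 passed, the inhibitory collagen receptor Lair1, higher by 0.24 (standard error 0.11, adjusted p = 0.999 by limma). In the deposited table Lair1 stood at 0.22 and did not pass. Spib, a factor of the pDC and B cell lineages, differed by -0.20 and did not pass, and the pDC sensors Tlr7 and Tlr9 differed by 0.02 and -0.04. Of 10 tested growth factor and receptor genes, none passed, with a median of 0.13, and Flt3l, the ligand of Flt3, differed by 0.13. Of 15 tested maturation and migration genes, none passed, with a median of 0.0089, and Ccr7, which guides mature dendritic cells to T cell zones, differed by -0.12.

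Between the sets, 26 of these 71 genes were higher and 7 lower in the second set at an adjusted p under 0.05 by limma, where 18.3% of all genes were higher and 20.6% lower. The 19 tested pDC genes were divided, with 6 higher and 4 lower. Ccr9, the chemokine receptor of pDC, rose by 0.74 and Mpeg1, the pore-forming perforin-2, by 0.81, while Pacsin1, an endocytic adaptor, fell by 0.73 and Zeb2, a transcriptional repressor, by 0.68. None of the 19 fell as far as the brighter Siglech probe. Flt3l, the ligand of Flt3, rose by 0.59. Apart from Rbpj and Lair1, the genes of these lists were named with their values known.

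Of the 19 tested interferon-stimulated genes, 0 passed between the genotypes without covariates, where 3.54% of all genes did, 16 differences were below 0 and 3 above, and the median was -0.13 beside 0.02 for all genes. Isg15, a ubiquitin-like protein, stood at -0.39. It passed with the set of replicates as a term, where 7.24% of all genes did. In the deposited table, where 7.74% did, it passed at -0.46. Bst2, which is induced by interferon but was not on that list, stood at 0.16. Of the 9 tested erythroid markers, 2 passed, both lower in Sting gt/gt mice, where 3.54% of all genes passed, and the median of the list was -0.42. Tfrc, the transferrin receptor, had a log2 difference of -0.52 (adjusted p = 0.999 by limma). No B cell, plasma cell, T cell, NK cell, monocyte and macrophage or neutrophil marker passed over 14 arrays without covariates. With the set of replicates as a term, where 7.24% of all genes passed, so did the plasma cell markers Sdc1 (0.39) and Tnfrsf17 (0.38). Both were higher in Sting gt/gt mice. The deposited table holds the same arrays and is not independent support, and 7.74% of all genes passed there. Both markers passed in it, at 0.40 and 0.35, as did the NK cell marker Nkg7 at 0.30.

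Of the 45 pairs of members, 6 varied together from mouse to mouse, with a Pearson correlation above 0.7 once the mean of each genotype in each set was removed, and the median of the 45 was 0.19. These correlations are given as a description over 14 mice whose arrays share slides. No share of all gene pairs stands beside the count, so whether it is more than for other genes was not tested. Flt3 and Cd209a had the highest, 0.88 (Spearman 0.86), with 0.94 in the first set, 0.70 in the second, and 0.73 without the 2 mice farthest from the median of Flt3. Flt3 and Tcf4 stood at 0.83 (Spearman 0.80, 0.73 without 2 mice), Flt3 and Itgax at 0.77 (Spearman 0.76, 0.73), and Itgax and Batf3 at 0.77 (Spearman 0.80, 0.74). Itgax and Clec9a (0.74, Spearman 0.62) and Clec9a and Tcf4 (0.71, Spearman 0.60) went down to 0.41 and 0.52 without 2 mice. WT replicate 2 was above its group mean for Flt3, Cd209a, Itgax, Clec9a, Batf3 and Tcf4, and so was Sting gt/gt replicate 7. Xcr1 was also above it in both mice, and Bst2 in Sting gt/gt replicate 7. Bst2 and Siglech, both pDC genes, stood at -0.03 over 14 mice, with 0.96 in the first set and -0.65 in the second. Siglech and Tcf4 stood at -0.00079, with -0.14 in the first set and 0.14 in the second.

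**Figure D5:**
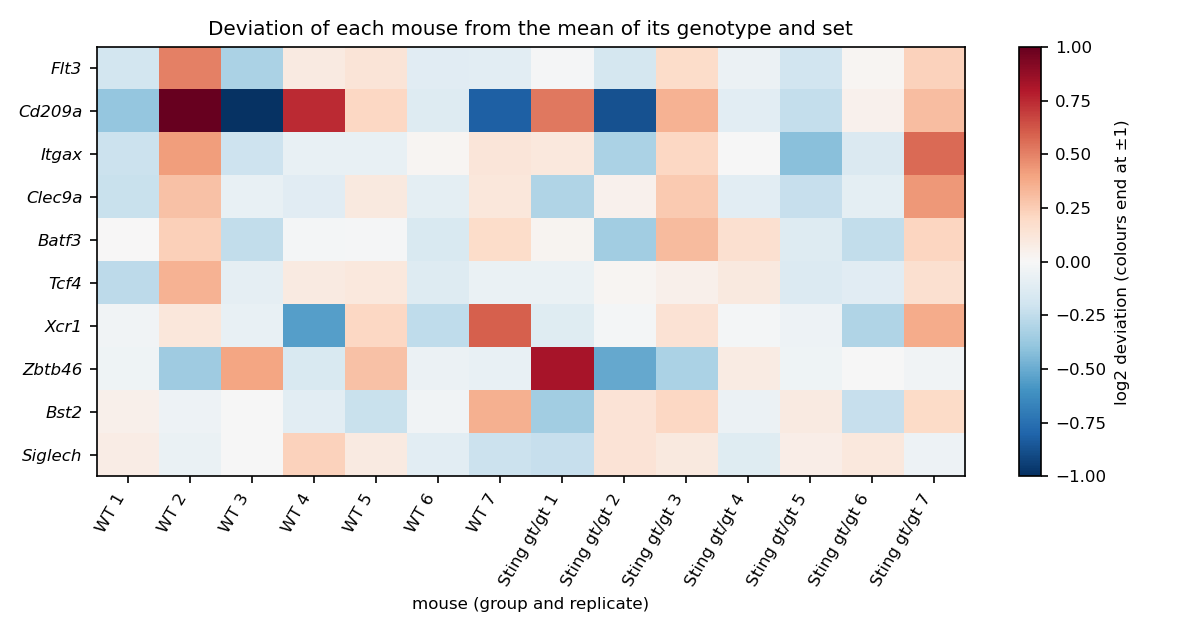
Deviation of each mouse (horizontal axis, group and replicate) from the mean of its genotype and set on the log2 scale, for the 10 genes, with red above and blue below the mean and colours ending at ±1. Flt3, Cd209a, Itgax, Clec9a, Batf3 and Tcf4 are red together in WT replicate 2 and Sting gt/gt replicate 7. The rows of Bst2 and Siglech differ from theirs. Between Bst2 and Siglech the rows are alike in the first set (Pearson 0.96) and differ in the second (Pearson -0.65).

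For Xcr1 and Cd209a the genes with the most similar deviations were also listed, of 14721 with a symbol. Those of Xcr1 were 9330020H09Rik (Pearson 0.92), Dlg4 (0.89), which encodes a postsynaptic scaffold, and Klra9 (0.86), a Ly49 receptor of NK cells. Those of Cd209a were Dscam (0.92), the cytokine gene Il1b (0.92) and Clec4d (0.91), a C-type lectin of myeloid cells. None of the cDC1 or cDC2 genes listed above was among them.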

How the data were processed

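Splenocyte RNA of 7 WT and 7 Sting gt/gt mice was labelled with 1 dye and hybridised to 14 arrays. According to the file headers, Agilent Feature Extraction (version 11.0.1.1) read the images, and the authors deposited the processed intensity of each spot, which is corrected for background but not scaled between arrays. They also deposited a table of log2 values, whose scaling is not given in the sources used here. Column medians of that table were 5.49 to 5.52, and its columns followed the log2 intensity of the same array with correlations of 0.997 to 0.999.

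Control and outlier-flagged spots were dropped, spots of a probe were averaged on the log2 scale, and the 75th percentile of each array was subtracted. Probes well above background on 7 or more of 14 arrays, regardless of group, numbered 31766. Each gene was represented by the brightest of these probes. Symbols were looked up by RefSeq accession without version (58.3% of 56605 probes had one).

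Genotypes were compared with limma 3.58.1 in R 4.3.3 without covariates, at an unadjusted p under 0.05, with Benjamini-Hochberg adjusted values over all genes. The sets of replicates were compared with genotype in the model, at an adjusted p under 0.05. Single members were also compared by two-sided exact permutation tests (scipy 1.17.1). Code was tested on simulated data. P values set a difference against the spread between these mice, which without covariates includes the difference between the sets. In the second set they cannot part genotype from slide. Deviations of WT and Sting gt/gt arrays with the same replicate number correlated at 0.16 to 0.53, and at -0.41 to 0.25 once set means were removed, so numbers pair the samples through the day of scanning. Alternatives covered scaling, background correction, the deposited table, the dim-probe filter, flags, probes of a gene, tests, slide, set, replicate block and each array left out. The comparison of sets was added after the data were seen.

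Named besides the members were listed genes past the genotype threshold and, for Siglech, Xcr1 and Cd209a, the 3 genes with the most similar deviations. Others were named after their values were seen. A listed gene that the rule would name is not reported here. The members and all lists were chosen with earlier results of these data known.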

Additional observations from a re-analysis of the deposited data

Results flagged for a closer look

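Cd209a in Sting gt/gt replicate 2 stood at -2.34, apart from the other 6 mice of its genotype, with a gap to the nearest of 0.607 of the group's range. Of 20 groups looked at (10 genes in 2 genotypes) this was the 1 set apart in this way, and chance sets apart about 1 in 20. Each group pooled mice of both sets of replicates. WT replicate 3, also of the first set, stood at -2.42. Without Sting gt/gt replicate 2, as without any other single mouse, Cd209a did not pass between the genotypes.

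The genotype difference of Siglech was lower in replicates 4 to 7 than in replicates 1 to 3 by a log2 value of -0.445 (exact permutation within sets p = 0.0229, adjusted p = 0.219 by limma). That of Bst2 was higher by 0.653 (exact permutation within sets p = 0.0157, adjusted p = 0.164 by limma). Over 7 settings of scaling, background correction, source of the values and probes of a gene, the difference ran from -0.46 to -0.36 for Siglech, past an unadjusted 0.05 in 5, and from 0.48 to 0.73 for Bst2, past it in 4. No adjusted value of either passed. Slide and genotype cannot be told apart in replicates 4 to 7.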

How the results depend on the processing

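Of 330 member comparisons between the genotypes, over 10 members and 33 settings, 271 kept their direction and their side of the threshold, 55 changed sign with none of these past the threshold, and 4 passed it. The count of all genes past an unadjusted 0.05, 882, was 1928 in the deposited table, 4705 with weighted arrays and an intensity trend, 1408 with the replicate block, 1803 with the set of replicates as a term, 439 with slide as a random block, 510 with slide as a fixed block, 5911 in replicates 4 to 7 and 5905 there in the deposited table. Without single mice it ran from 494 (without Sting gt/gt replicate 6) to 1963 (without Sting gt/gt replicate 1), with 530 without Sting gt/gt replicate 5, and 0 members passed in each. The replicate block changed no member's call. Members past the threshold numbered 1 with array weights (Bst2, 0.32), 2 in replicates 4 to 7 and 1 there in the deposited table. Median centring split the genes into 250 higher and 568 lower, no scaling into 149 and 614, and the main scaling into 477 and 405.

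With signs turned, Flt3 stood at -0.019 with no scaling, -0.12 with slide as a random block, -0.16 with it fixed, -0.12 in replicates 1 to 3 and -0.11 there in the deposited table. Itgax stood at 0.098 with array weights, 0.21 in replicates 4 to 7 and 0.13 there in the deposited table. Clec9a stood at 0.016, 0.098 and 0.039 under the same 3 settings, and Tcf4 at 0.0041 and 0.055 under the first 2. With slide fixed, Xcr1 stood at -0.021, Siglech at 0.089 and Bst2 at -0.35. With slide random, Siglech stood at 0.23 and Bst2 at -0.055. In replicates 1 to 3, Cd209a stood at -0.033, Siglech at 0.16 and Bst2 at -0.22, and there in the deposited table at -0.054, 0.12 and -0.16, with Batf3 at 0.0011. Siglech averaged over its probes stood at 0.086. The fixed slide rests on 5 arrays of the first set. Without single mice, Zbtb46 ran from -0.043 to 0.18, Flt3 from -0.079 to 0.16, Itgax from -0.13 to 0.091, Clec9a from -0.13 to 0.091, Batf3 from -0.089 to 0.037, Cd209a from -0.10 to 0.34, Siglech from -0.35 to 0.11 and Tcf4 from -0.13 to 0.0022, and Xcr1 and Bst2 stayed above 0. The cause was not tested.

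Between the sets, 0 members passed in the deposited table. With normexp, Zbtb46 differed by -0.021 and Xcr1 by -0.056, and Tcf4 averaged over its probes by -0.047. Batf3 passed under median centring (0.31), which moved the median of all genes to 0.17, and Cd209a passed with its probes averaged (0.87). Of all 24908 genes, 11213 passed under median centring and 9251 with probes averaged. Members whose genotype difference varied between the sets numbered 1 in the deposited table (Siglech), with probes averaged (Bst2), with median centring (Bst2), with no scaling (Siglech) and with quantile normalization (Siglech). Of all 24908 genes, 4278 passed this unadjusted 0.05 in the deposited table and 4381 with probes averaged. With median centring 4776 passed, with no scaling 3056 and with quantile normalization 4356.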
